A study of Homo sapiens with 4 samples.

Results

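Small nucleolar RNA host genes (SNHG) are followed here across 4 single-cell RNA libraries of a prostate cancer cell line. The set was chosen by gene symbol from a list of 10 such genes, and the list was proposed with their levels in these libraries in view, so the levels and ratios below are descriptions with no test. Of the 10 listed, SNHG7, SNHG8, SNHG12, SNHG15 and SNHG25 were analysed, which is 5 of 33538 genes counted, and SNHG1, SNHG5, SNHG6, SNHG16 and GAS5 were not analysed here.

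LNCaP is an androgen-sensitive human line established from a lymph node metastasis of prostate cancer, and enzalutamide is a drug that blocks the androgen receptor. The 4 groups were LNCaP given the solvent DMSO (0.1%) for 48 hours (LNCaP), LNCaP given 10 µM enzalutamide for 48 hours (LNCaP-ENZ48), and 2 lines selected from LNCaP for resistance to the drug, RES-A and RES-B, which as established lines received 10 µM enzalutamide at each feeding. Per the study's methods, RES-A came from passaging in rising concentrations of enzalutamide and RES-B from continuous exposure to the related anti-androgen RD-162, so each resistant line is 1 selection of 1 parental line. Each group was 1 library of sorted living cells. With no replicate, a difference between 2 groups and a difference between 2 libraries cannot be told apart, and every interval below covers counting error alone.

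A snoRNA host gene is transcribed as a longer RNA from which one or more small nucleolar RNAs are trimmed, usually out of introns. The snoRNAs then guide chemical changes of ribosomal RNA: box C/D snoRNAs direct 2'-O-methylation with fibrillarin, and box H/ACA snoRNAs direct pseudouridylation with dyskerin. The spliced exons that remain often carry no long reading frame. Many such transcripts begin with a 5' terminal oligopyrimidine (TOP) stretch, as ribosomal protein mRNAs do, and many are removed by nonsense-mediated decay, so the amount of the spliced RNA need not follow the amount of the snoRNA. The libraries count polyadenylated RNA at its 3' end, and the snoRNAs themselves were not analysed here.

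Positions below are on GRCh38 with GENCODE release 44. SNHG25 (ENSG00000266402) is the most compact of the 5 at 540 bp, on the plus strand of chr17:64145937-64146476. It has 2 exons and holds 2 snoRNA loci, 1 of each class. SNHG8 (ENSG00000269893, chr4:118278703-118285316, plus strand) holds SNORA24 in its first intron. SNHG7 (ENSG00000233016, chr9:136721366-136728184, minus strand) holds SNORA17A and SNORA17B in introns. SNHG15 (ENSG00000232956, chr7:44983019-44986961, minus strand) holds SNORA9, which lies inside exon 2 of its reference transcript. SNHG12 (ENSG00000197989, chr1:28578538-28583132, minus strand) holds 4 loci, SNORA16A, SNORA44, SNORA61 and SNORD99, all intronic in its reference transcript.

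**Figure D1:**
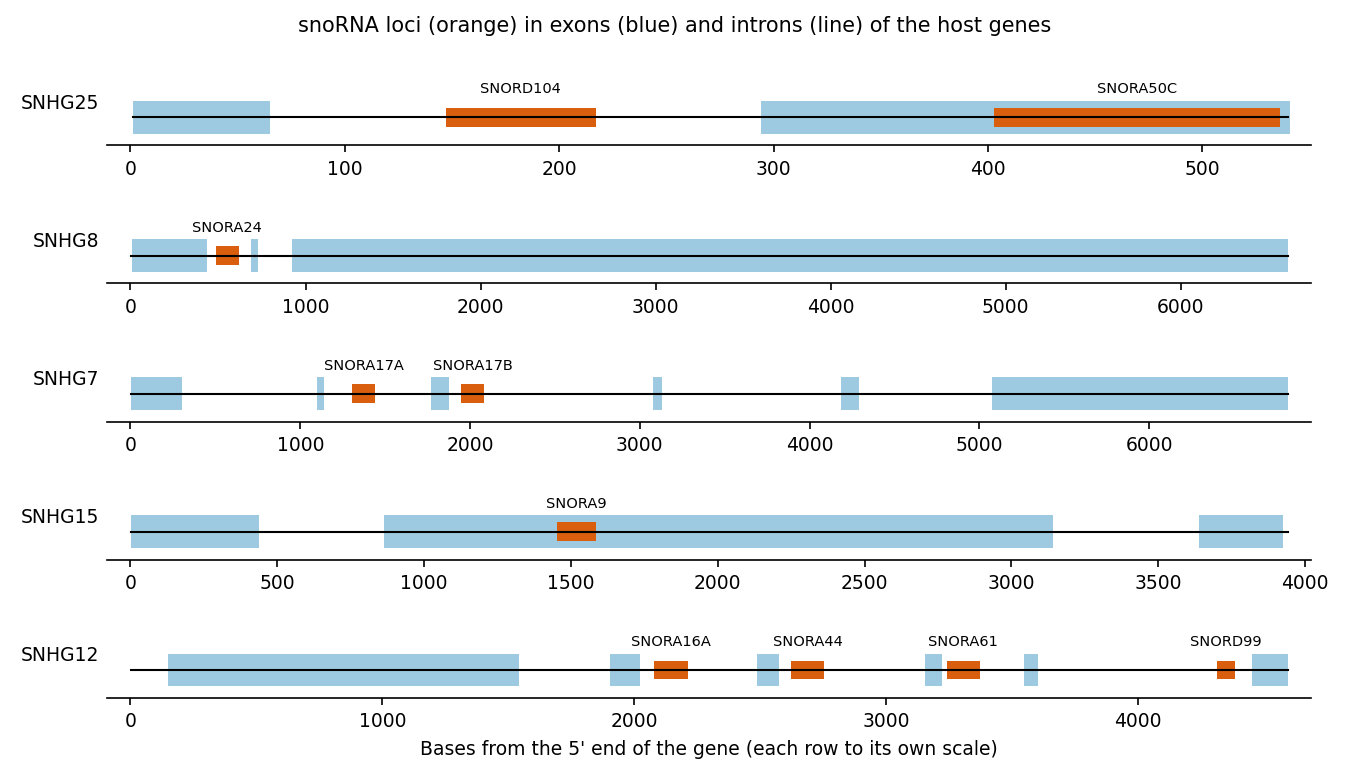
Exons of the reference (canonical) transcript, introns and snoRNA loci of the 5 host genes, against distance in bases from the 5' end of the gene, each row to its own scale. SNORD104 lies in the intron of SNHG25 and SNORA50C inside its second exon, bases 403 to 535 of 540.

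The snoRNAs of SNHG25 are shown because that gene had the widest range over the libraries. SNORA24 of SNHG8 and SNORA17A of SNHG7 are shown because each of these host genes was low in 1 resistant line. SNORA17B of SNHG7 is not shown. SNORD104 (chr17:64146083-64146152, plus strand, intronic) is a box C/D snoRNA, and the capitals mark box C (searched as ATGATGA or GTGATGA in the first 25 bases) and box D (CTGA near the 3' end). The other 3 are box H/ACA snoRNAs, SNORA50C (chr17:64146339-64146471, plus strand, exonic), SNORA24 (chr4:118279190-118279320, plus strand, intronic) and SNORA17A (chr9:136726747-136726879, minus strand, intronic), with capitals for the H box (ANANNA near the middle) and the ACA close to the 3' end. All are written 5' to 3' as DNA from the reference genome.
SNORD104: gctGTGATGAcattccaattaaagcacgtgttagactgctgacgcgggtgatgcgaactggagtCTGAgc
SNORA50C: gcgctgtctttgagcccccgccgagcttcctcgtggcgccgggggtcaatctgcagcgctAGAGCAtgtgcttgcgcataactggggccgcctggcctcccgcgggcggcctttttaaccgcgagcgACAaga
SNORA24: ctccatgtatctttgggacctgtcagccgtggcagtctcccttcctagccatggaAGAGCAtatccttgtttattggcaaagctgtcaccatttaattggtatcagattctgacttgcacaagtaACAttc
SNORA17A: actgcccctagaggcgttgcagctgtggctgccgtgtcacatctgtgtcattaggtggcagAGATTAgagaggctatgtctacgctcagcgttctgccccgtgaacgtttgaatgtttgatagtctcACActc
Searched by the same rules on the strand of the RNA, both boxes were found in 62.1% of 306 annotated SNORD entries and in 75.4% of 207 annotated SNORA entries. 

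RefSeq promoter windows (GRCh38.p14) were given for 3 of the 5 genes, SNHG12, SNHG8 and SNHG7, and 60 bases centred on the annotated start are shown because a TOP stretch, if present, begins at the start. Capitals mark the longest pyrimidine run that begins with C within 5 bases of the start, on the strand of the gene. The windows are chr1:28581844-28581903, minus strand for SNHG12, chr4:118278732-118278791, plus strand for SNHG8 and chr9:136728155-136728214, minus strand for SNHG7.
SNHG12: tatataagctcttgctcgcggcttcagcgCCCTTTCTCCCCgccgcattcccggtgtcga
SNHG8: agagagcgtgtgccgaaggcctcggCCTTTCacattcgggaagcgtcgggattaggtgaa
SNHG7: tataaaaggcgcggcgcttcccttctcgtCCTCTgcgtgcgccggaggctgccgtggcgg
The run was 12 bases long in SNHG12, 6 in SNHG8 and 5 in SNHG7. A run of at least 5 bases was found within 5 bases of the start in 21.1% of 35116 promoters, and exactly at the start in 4.07%. SNHG12 met the stricter form with 11 bases from the start itself, whereas SNHG7 had 4 and SNHG8 had 1. The RefSeq start of SNHG12 lies at base 1260 of the GENCODE gene given above, inside exon 1 of its reference transcript, so this run is not at the 5' end of that gene model. The RefSeq starts of SNHG8 and SNHG7 lie at bases 60 and 1 of theirs. The E-box CACGTG, which reads alike on both strands, occurred once in the 300-base window of SNHG7 and in neither of the other 2 windows, against 7.26% of all promoters.

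The libraries held 1782 to 4569 cells after the study's filters and 50208831 to 60838227 unique molecular identifiers (UMIs), and LNCaP had fewer and deeper cells than the others (median 27079.5 UMIs per cell against 12138 to 13676). Pairs of libraries shared 2 to 9 cell barcodes. All 5 epithelial and prostate markers checked (KRT8, KRT18, EPCAM, FOLH1 and HOXB13) were present in every library, with a summed level in UMIs per 1000000 (CPM) from 91.96 for HOXB13 in RES-A to 918.4 for KRT18 in RES-B. The leukocyte marker PTPRC and the fibroblast marker COL1A2 had 0 UMIs in every library, the endothelial marker PECAM1 had 0 or 1, and the fibroblast marker COL1A1 was at 1.45 to 3.19 CPM.

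Levels are a gene's UMIs added up over all kept cells, per 1000000 UMIs of that library. A UMI stands for 1 captured molecule at its 3' end, so levels were not divided by gene length, and levels of different genes are set side by side per captured molecule. On this scale SNHG8 averaged 563.0 CPM over the 4 libraries and SNHG25 285.6 CPM, against 39.1 CPM for SNHG15, 38.1 CPM for SNHG7 and 16.4 CPM for SNHG12. All 5 passed the minimum mean of 10 CPM that 7460 genes passed. The summed level of the 5 genes was 888.3 CPM in LNCaP, 1001 CPM in LNCaP-ENZ48 and 1173 CPM in RES-A, and it was lowest in RES-B at 706.4 CPM. SNHG8 and SNHG25 carried most of it.

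**Figure D2:**
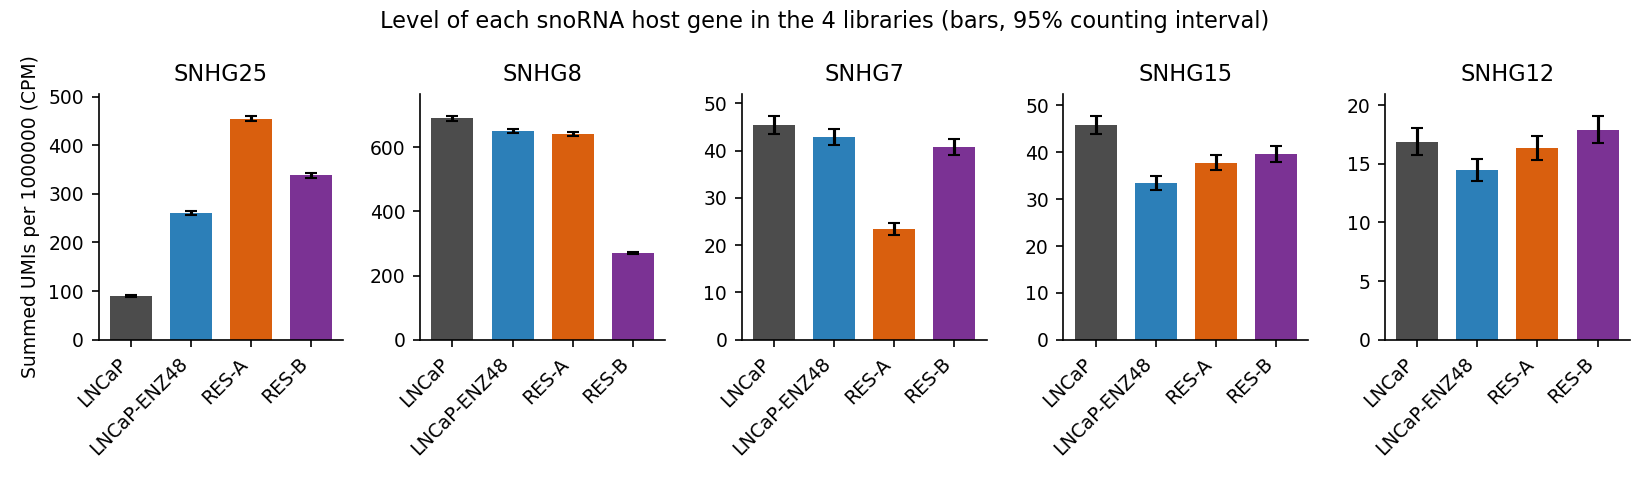
Summed UMIs per 1000000 (CPM, vertical axis, each panel to its own scale from 0) of the 5 host genes in the 4 libraries. Error bars are exact Poisson 95% intervals, and SNHG25 steps up from LNCaP (89.6 CPM) to RES-A (454.7 CPM), while SNHG8 is lowest in RES-B (270.4 CPM) and SNHG7 in RES-A (23.3 CPM).

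SNHG25 was lowest in the solvent-treated cells and higher in every library that had met enzalutamide. Its level was 89.6 CPM in LNCaP (95% Poisson interval 86.99 to 92.2, 4498 UMIs), 260.3 CPM in LNCaP-ENZ48 (256.3 to 264.4, 15837 UMIs), 454.7 CPM in RES-A (449.2 to 460.2, 26071 UMIs) and 337.8 CPM in RES-B (332.9 to 342.8, 17761 UMIs). No 2 of these intervals overlapped, and the order from high to low was RES-A, RES-B, LNCaP-ENZ48, LNCaP. After 48 hours of enzalutamide the level was 2.91-fold that of LNCaP, a log2 ratio of 1.54 (95% interval 1.49 to 1.59). That ratio was exceeded by 6 of the 7460 genes. The ratio to LNCaP was 5.08-fold in RES-A (log2 2.34, 2.30 to 2.39), exceeded by 48 genes, and 3.77-fold in RES-B (log2 1.92, 1.87 to 1.96), exceeded by 69 genes. Against the acutely treated cells SNHG25 was 1.75-fold higher in RES-A, and for RES-B the ratio was 1.30-fold. RES-B stood below RES-A by a log2 ratio of -0.43 (-0.46 to -0.40).

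Few of the genes around SNHG25 on chromosome 17 had ratios as high. Among its 50 nearest expressed protein-coding genes, 25 on each side, the number with a ratio to LNCaP at or above that of SNHG25 was 0 in LNCaP-ENZ48 and 1 in RES-A, and it was 2 in RES-B. The median log2 ratio of these neighbours, relative to the median of all protein-coding genes, was -0.07, -0.12 and 0.01 in the 3 comparisons. No other annotated gene apart from its snoRNAs overlaps SNHG25. SNORA50C covers bases 403 to 535 of its 540, on the same strand and at the 3' end that these libraries count. Reads there cannot be assigned to the spliced host RNA or to RNA processed at the snoRNA by position. The part of such RNA in the SNHG25 counts was not tested.

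SNHG8 was within 1.08-fold of its LNCaP level in LNCaP-ENZ48 and RES-A and was low in RES-B. Its level was 690.6 CPM in LNCaP (683.3 to 697.9, 34673 UMIs), 650.3 CPM in LNCaP-ENZ48 (643.9 to 656.7, 39561 UMIs), 640.7 CPM in RES-A (634.2 to 647.3, 36738 UMIs) and 270.4 CPM in RES-B (266.0 to 274.9, 14217 UMIs). The intervals of LNCaP-ENZ48 and RES-A overlapped, and those of all other neighbours in the order lay apart. RES-B was 2.55-fold below LNCaP (log2 ratio -1.35, -1.38 to -1.32) and 2.37-fold below RES-A (log2 ratio -1.24, -1.27 to -1.22). The log2 ratio to LNCaP was -0.09 in LNCaP-ENZ48 and -0.11 in RES-A.

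SNHG8 in RES-B also stood below the genes next to it on chromosome 4. All 50 of its expressed protein-coding neighbours had a ratio of RES-B to LNCaP at or above its own, and their median relative to all protein-coding genes was -0.14, against -1.47 for SNHG8. PRSS12, a protease gene annotated on the opposite strand across the locus, had 0 to 10 UMIs in any library.

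SNHG7 was low in RES-A and close to its LNCaP level elsewhere. Its level was 45.4 CPM in LNCaP (43.6 to 47.3, 2281 UMIs), 42.9 CPM in LNCaP-ENZ48 (41.3 to 44.6, 2609 UMIs), 23.3 CPM in RES-A (22.1 to 24.6, 1338 UMIs) and 40.7 CPM in RES-B (38.98 to 42.4, 2139 UMIs). The intervals of LNCaP and LNCaP-ENZ48 overlapped, as did those of LNCaP-ENZ48 and RES-B, while RES-A lay apart from the other 3. RES-A was 1.95-fold below LNCaP (log2 ratio -0.96, -1.06 to -0.86), and RES-B was 1.74-fold above RES-A (log2 ratio 0.80, 0.70 to 0.90). The ratio to LNCaP was -0.08 (log2) in LNCaP-ENZ48 and -0.16 in RES-B.

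Near SNHG7 on chromosome 9 the RES-A ratios were low as well. The 50 neighbours had a median RES-A to LNCaP log2 ratio of -0.26 relative to all protein-coding genes, and 49 of them were at or above SNHG7. FAM69B (now DIPK1B), a protein-coding gene whose annotation overlaps SNHG7 on the opposite strand, stood at 31.7 CPM in LNCaP and 31.5 in LNCaP-ENZ48, with 17.9 in RES-A against 23.9 in RES-B. Its RES-A to LNCaP log2 ratio was -0.82 (-0.94 to -0.71). Whether reads were assigned by strand is not given in the sources used here, and the part of this overlap in the SNHG7 counts was not tested.

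SNHG15 was highest in LNCaP and lowest after short treatment. Its level was 45.8 CPM in LNCaP (43.99 to 47.8, 2302 UMIs), 33.4 CPM in LNCaP-ENZ48 (31.996 to 34.9, 2034 UMIs), 37.7 CPM in RES-A (36.1 to 39.3, 2161 UMIs) and 39.6 CPM in RES-B (37.9 to 41.3, 2081 UMIs). RES-A and RES-B overlapped in their intervals, and LNCaP and LNCaP-ENZ48 lay apart from them on either side. The log2 ratio to LNCaP was -0.46 (-0.54 to -0.37) in LNCaP-ENZ48, with -0.28 in RES-A against -0.21 in RES-B, so none reached 1.5-fold. In LNCaP-ENZ48 the ratio of SNHG15 was exceeded by 7007 of 7460 genes and was at or below that of 48 of its 50 neighbours on chromosome 7.

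SNHG12 was the lowest of the 5 and the one with the narrowest range. Its level was 16.9 CPM in LNCaP (15.8 to 18.1, 848 UMIs), 14.4 CPM in LNCaP-ENZ48 (13.5 to 15.4, 878 UMIs), 16.3 CPM in RES-A (15.3 to 17.4, 936 UMIs) and 17.9 CPM in RES-B (16.8 to 19.1, 941 UMIs). Each neighbouring pair in the order RES-B, LNCaP, RES-A, LNCaP-ENZ48 had overlapping intervals. The log2 ratio to LNCaP was -0.23 (-0.36 to -0.09) in LNCaP-ENZ48, -0.05 (-0.18 to 0.09) in RES-A and 0.08 (-0.05 to 0.22) in RES-B. In RES-B its neighbours on chromosome 1 stood at a median of 0.30 (log2) relative to all protein-coding genes, with SNHG12 itself at -0.03. TRNAU1AP, which overlaps SNHG12 on the opposite strand, was 1.45-fold higher in RES-B than in LNCaP (53.8 against 37.2 CPM).

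Taking a ratio of at least 1.5-fold as a difference, the counts among the 5 genes can be read against all 7460 genes. Of the 4 comparisons 3 use the same LNCaP library, so these are not independent of each other. In LNCaP-ENZ48 against LNCaP, 1 of the 5 was higher (SNHG25) and 0 were lower, where 1.01% of all genes were higher and 3.22% lower. In RES-A against LNCaP, 1 was higher (SNHG25) and 1 lower (SNHG7), where 11.3% of all genes were higher and 11.5% lower. In RES-B against LNCaP, 1 was higher (SNHG25) and 1 lower (SNHG8), where 14.2% of all genes were higher and 8.26% lower. In RES-B against RES-A, 1 was higher (SNHG7) and 1 lower (SNHG8), where 12.2% of all genes were higher and 5.83% lower. With TMM scaling the genes past 1.5-fold split differently over all 7460 genes, into 115 higher and 157 lower in LNCaP-ENZ48 against LNCaP (75 and 240 with library totals) and 777 higher and 839 lower in RES-B against LNCaP (1059 and 616), while the host genes past 1.5-fold were the same. Nothing is read from these counts about the set, since its members were proposed with the levels known. The median log2 ratio of the 5 was -0.09, -0.11, -0.16 and 0.07 in the 4 comparisons, against -0.07, 0.02, 0.11 and 0.09 over all 7460 genes. The sign of this median over 5 genes turned under other settings. The gene beyond 1.5-fold below LNCaP was SNHG7 in RES-A and SNHG8 in RES-B.

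**Figure D3:**
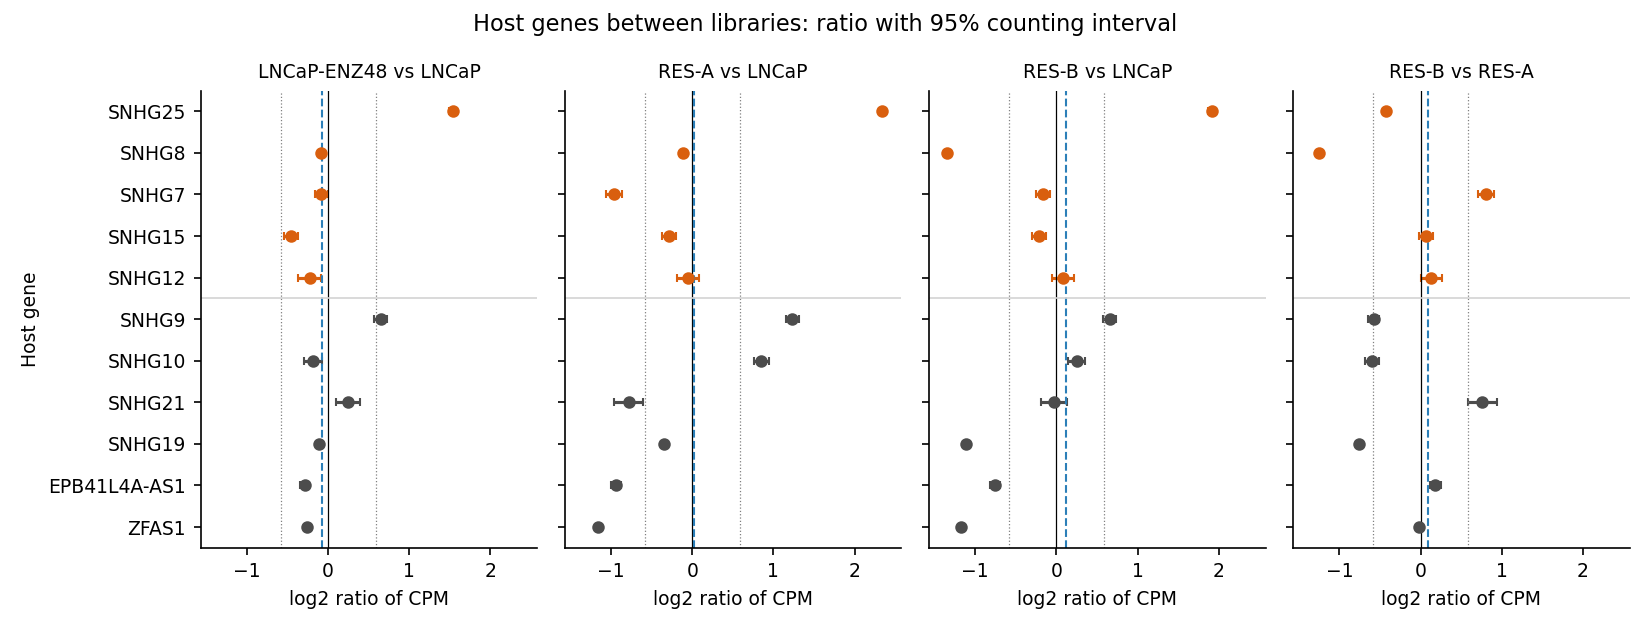
Log2 ratio of CPM between libraries for the 5 host genes (orange, upper rows) and for 6 other noncoding snoRNA hosts (grey, lower rows), with 95% counting intervals. Dotted lines mark 1.5-fold in either direction and the dashed line the median of all genes, and SNHG25 lies beyond the right dotted line in all 3 comparisons with LNCaP.

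Per cell, SNHG25 followed the order of the summed levels. After every cell was thinned to 5000 UMIs to remove the difference in depth, the mean was 0.433 SNHG25 UMIs per cell in LNCaP and 1.31 in LNCaP-ENZ48, with 2.31 in RES-A against 1.72 in RES-B. The median cell held 0, 1, 2 and 1 UMIs, and the 75th percentile 1, 2, 3 and 2 UMIs. The variance divided by the mean, which is 1 for pure counting, was 1.13, 1.32, 1.23 and 1.25, and the median over all genes within 1.5-fold of the same mean was 1.04, 1.08, 1.09 and 1.11. SNHG25 thus varied more from cell to cell than the median gene of like mean in each library, and the counts of the 4 libraries overlapped. No cell type known to lack SNHG25 was present to measure the background from free RNA, so a UMI in a cell is not read as expression by that cell.

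**Figure D4:**
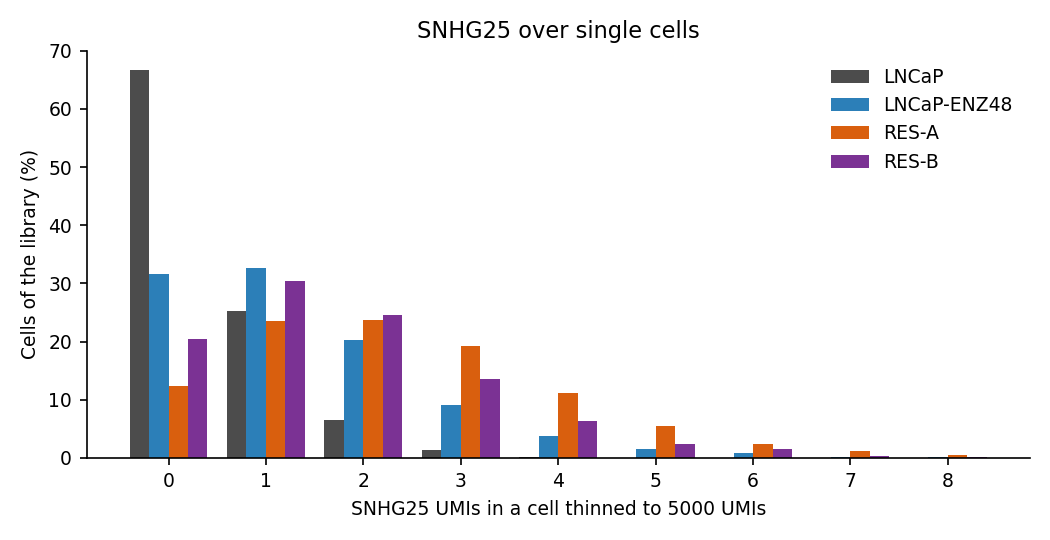
Share of cells of each library (vertical axis, percent) by their number of SNHG25 UMIs after thinning to 5000 UMIs (horizontal axis, up to 8). The distributions have a mean of 0.433 in LNCaP and 1.31 in LNCaP-ENZ48, with 2.31 in RES-A against 1.72 in RES-B.

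SNHG8 differed between libraries in its spread as well as in its level. The thinned mean was 3.46 UMIs per cell in LNCaP and 3.24 in LNCaP-ENZ48, with 3.23 in RES-A against 1.38 in RES-B. Its variance divided by the mean was 1.63, 1.61, 1.18 and 1.04, so LNCaP-ENZ48 and RES-A had nearly the same mean and a different spread. Genes of like mean had a median of 1.19, 1.16, 1.10 and 1.10. Correlations across the cells of a library used the logarithm of 1 plus the thinned count of a host gene. Against the summed ribosomal protein UMIs, that of SNHG8 was 0.265 in LNCaP and 0.240 in LNCaP-ENZ48, with 0.236 in RES-A against 0.102 in RES-B. These were over 1782, 4315, 4569 and 4061 cells that share a library. For SNHG25 the same correlation was 0.02 to 0.04. Counting noise lowers a correlation more at a low mean, as for SNHG8 in RES-B. Its part in these differences was not tested. Over the 10 pairs of the 5 genes, correlations across cells lay between -0.02 and 0.14 in the 4 libraries. SNHG7, SNHG12 and SNHG15 had a mean of 0.0753 to 0.235 UMIs per thinned cell, too few to describe a spread.

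Cells were called G1, S or G2/M from scores of S and G2/M genes, and G1 held 69.6% to 83.4% of the cells of a library. SNHG25 was lower in G2/M than in G1 cells in all 4 libraries, with log2 ratios of -0.34 in LNCaP, -0.24 in LNCaP-ENZ48, with -0.28 in RES-A against -0.22 in RES-B. SNHG8 was likewise lower in G2/M cells, with log2 ratios of -0.37, -0.19, -0.37 and -0.29 in the same order. The median of all genes for this ratio was 0.03 to 0.12. SNHG12 was higher in S than in G1 cells in LNCaP (24.3 against 16.3 CPM), LNCaP-ENZ48 (24.8 against 13.4 CPM) and RES-B (25.7 against 17.2 CPM). In RES-A its interval spanned 0 (log2 0.12, -0.15 to 0.39), and the S cells held 83 to 138 SNHG12 UMIs per library. The order of the libraries for SNHG25 was the same within G1, within S and within G2/M cells, for example 94.0, 266.4, 477.6 and 349.4 CPM in the G1 cells of the solvent-treated, acutely treated, RES-A and RES-B libraries.

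**Figure D5:**
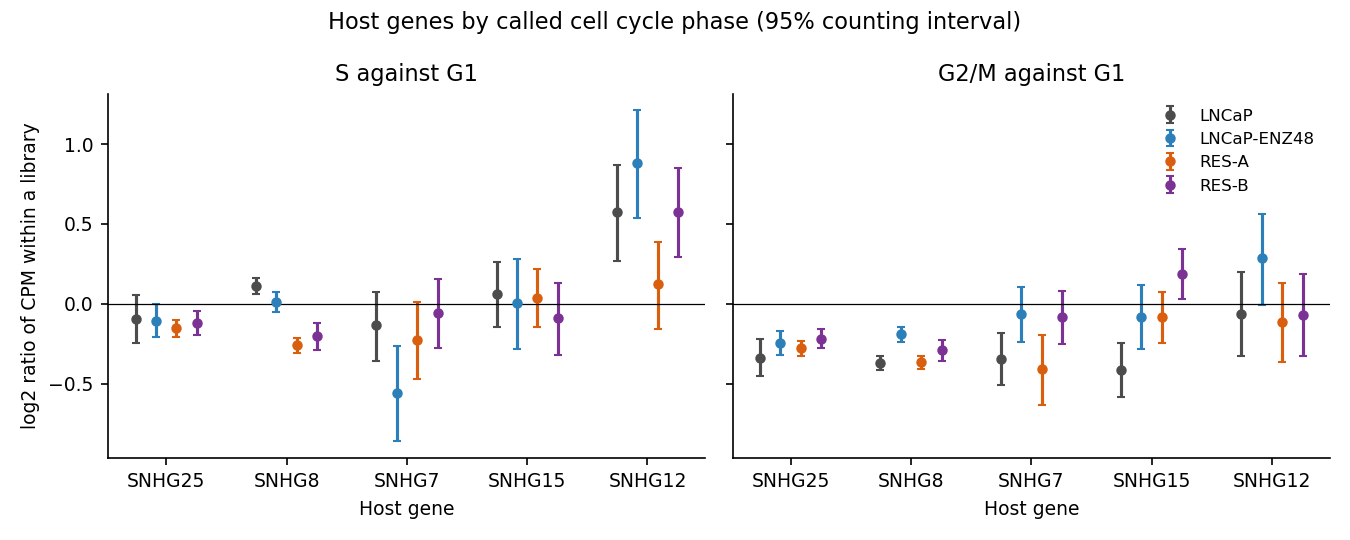
Log2 ratio of CPM in S cells (left) and G2/M cells (right) to G1 cells of the same library, for the 5 host genes in the 4 libraries, with 95% counting intervals. SNHG25 and SNHG8 lie below 0 for G2/M in all 4 libraries, and SNHG12 lies above 0 for S in LNCaP, LNCaP-ENZ48 and RES-B with intervals that exclude 0.

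Other noncoding snoRNA hosts, of which 12 were counted and 6 averaged 10 CPM or more, also differed among themselves. SNHG9, the host of SNORA78, was higher in all libraries with enzalutamide, at 36.9 CPM in LNCaP and 57.8 in LNCaP-ENZ48, with 86.9 in RES-A against 58.2 in RES-B. Its log2 ratio to LNCaP was 0.65, 1.24 and 0.66. ZFAS1, the host of SNORD12, SNORD12B and SNORD12C, stood at 729.6 CPM in LNCaP and 610.4 in LNCaP-ENZ48, with 327.0 in RES-A against 323.8 in RES-B. ZFAS1 was 2.23-fold below LNCaP in RES-A and 2.25-fold below it in RES-B, and the intervals of those 2 lines overlapped.

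SNHG19, the host of SNORD60, was lowest in RES-B, at 358.4, 331.8, 281.5 and 165.9 CPM in the same order, which was 2.16-fold below LNCaP. EPB41L4A-AS1, the host of SNORA13, stood at 112.0, 91.9, 58.5 and 66.3 CPM. SNHG10, which holds a scaRNA of the Cajal body (SCARNA13), was highest in RES-A at 47.6 CPM and was at 23.2 to 31.4 CPM elsewhere. SNHG21, with SCARNA15, was lowest in RES-A at 7.31 CPM against 12.4 to 14.9 CPM. Past 1.5-fold, the 6 had 1 higher and 0 lower in LNCaP-ENZ48, 2 higher and 3 lower in RES-A, and 1 higher and 3 lower in RES-B, each against LNCaP. The higher gene in RES-B was SNHG9, whose log2 ratio of 0.66 (0.57 to 0.74) fell short of 1.5-fold with TMM scaling. In RES-B against RES-A, 1 was higher and 2 were lower. Of all genes, 1.01% were higher and 3.22% lower in LNCaP-ENZ48, 11.3% and 11.5% in RES-A, 14.2% and 8.26% in RES-B, and 12.2% and 5.83% between the resistant lines, and with 6 genes a single gene is 16.7% of the list. The other 6 genes were low in every library, with SNHG4 at 1.60 to 2.11 CPM, SNHG22 and SNHG27 at 0.349 to 1.10 CPM, SNHG18 and MEG3 (which has no annotated snoRNA inside it in this release) at 0 to 6 UMIs, and SNHG28 at 0 UMIs.

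Protein-coding genes that hold an annotated snoRNA on their own strand numbered 273, of which 170 passed 10 CPM. Their median log2 ratio to LNCaP was -0.11 in LNCaP-ENZ48, and it was -0.02 in RES-A while RES-B had 0.03, with sign changes of the RES-A and RES-B medians under other settings. Past 1.5-fold, 1 was higher and 2 lower in LNCaP-ENZ48, 13 higher and 21 lower in RES-A, and 15 higher and 17 lower in RES-B. As shares of the 170 these were 0.588% and 1.18%, 7.65% and 12.4%, and 8.82% and 10.0%, beside 1.01% and 3.22%, 11.3% and 11.5%, and 14.2% and 8.26% of all genes. Ribosomal protein genes, described again below, were among the 170. The 142 left without them had median log2 ratios of -0.13, 0.04 and 0.11. The RES-A median of the 142 turned to -0.01 with TMM scaling. In RES-B 10.6% of the 142 were higher and 8.45% lower. CSKMT, a mitochondrial lysine methyltransferase gene, was the highest in LNCaP-ENZ48 (70.6 against 41.6 CPM). PCNA, the replication clamp, and HSPA8, a cytosolic chaperone, were the highest in RES-A, at log2 ratios of 1.29 and 1.22. DEGS1, a dihydroceramide desaturase, and RASSF3 were the lowest in both resistant lines. DEGS1 went from 228.0 CPM in LNCaP to 29.1 in RES-A, with 73.2 in RES-B, and RASSF3 from 90.2 CPM to 15.5 and 14.1.

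The proteins that bind snoRNAs were described from a list of 8, all of them expressed. Their median log2 ratio to LNCaP was -0.17 in LNCaP-ENZ48, with 0.32 in RES-A against 0.28 in RES-B. Over all genes it was -0.07, 0.02 and 0.11. With TMM scaling the RES-B median of the 8 was 0.17, where that of all genes was 0.01. In RES-A 2 were past 1.5-fold, the box C/D core proteins NOP56 (237.6 against 121.5 CPM) and NOP58 (88.1 against 57.9 CPM), both higher. NOP58, at a log2 ratio of 0.60 (0.54 to 0.67), lay near the limit and fell short of it with TMM scaling, as did DKC1 in RES-B. In RES-B DKC1, the pseudouridine synthase of box H/ACA particles, was higher (138.2 against 87.3 CPM), and FBL, the methyltransferase fibrillarin of box C/D particles, was lower (144.4 against 219.3 CPM). None passed 1.5-fold in LNCaP-ENZ48, where DKC1 had the lowest ratio at -0.32. Of 9 expressed assembly factors, PIH1D1 was higher in RES-A (74.0 against 48.3 CPM) and NUFIP1 in RES-B (21.3 against 11.6 CPM), with none lower. The shares of all genes past 1.5-fold are those given above for each comparison.

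Factors of nonsense-mediated decay, the pathway that removes many spliced host transcripts, included 14 expressed genes. On the scale of library totals all 14 had a log2 ratio below 0 in LNCaP-ENZ48, from -0.53 to -0.02, with a median of -0.13 against -0.07 over all genes. With TMM scaling 11 of the 14 were below 0, and over all genes the share below 0 was 64.4% with library totals and 45.5% with TMM. None passed 1.5-fold in LNCaP-ENZ48, and UPF1, the central helicase, was the lowest (18.1 against 26.1 CPM). RBM8A, a core protein of the exon junction complex, was higher in RES-A (265.5 against 165.8 CPM) and in RES-B (272.8 CPM), and its paired subunit MAGOHB was higher in RES-B (54.9 against 34.5 CPM). With library totals no other factor of the 14 passed 1.5-fold against LNCaP, where 11.3% of all genes were higher in RES-A, with 14.2% in RES-B.

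Genes that share the TOP start with many snoRNA hosts were described as 77 cytosolic ribosomal protein genes and 18 other expressed TOP genes. The ribosomal protein genes had a median log2 ratio to LNCaP of -0.02 in LNCaP-ENZ48, with -0.14 in RES-A against -0.34 in RES-B, where the median over all genes was 0.11. The number past 1.5-fold was 0 in either direction in LNCaP-ENZ48, while 5 were lower in RES-A, 9 in RES-B, and none was higher. These were 6.49% of the 77 in RES-A, where 11.5% of all genes were lower, and 11.7% in RES-B, where 8.26% were. The lowest were RPS25 in RES-A (1915 against 3381 CPM) and RPS3 in RES-B (2222 against 3737 CPM). Of the other TOP genes, 4 were lower in RES-A, led by TPT1 (2547 against 4195 CPM), and 3 in RES-B, led by NAP1L1 (562.2 against 998.0 CPM) and EEF1D (467.2 against 822.3 CPM). That is 22.2% and 16.7% of 18 genes, beside 11.5% and 8.26% of all genes. SNHG8 in RES-B, at -1.35, was below every one of the 77 ribosomal protein genes, of which the lowest was at -0.75.

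The genes whose pattern over the 4 libraries was most like a host gene were found by the distance between profiles of log2 CPM, each centred on its own mean, among 2384 genes that averaged 50 CPM or more. With 4 points a profile holds little information, and the values are given as a description. For SNHG25 the nearest was SELENBP1, a selenium-binding protein gene (distance 0.537), at 108.5 CPM in LNCaP and 188.6 in LNCaP-ENZ48, with 392.1 in RES-A against 291.1 in RES-B. SESN3 and BROX came next, at distances of 0.793 and 0.811. For SNHG8 the nearest were DCTN6, a dynactin subunit gene (distance 0.130), NUDT8 (0.163) and MACROD1 (0.287), of which DCTN6 stood at 108.5, 101.0, 91.3 and 43.4 CPM. For SNHG7 they were ARGLU1 (0.0523), FAM118A (0.0948) and CCPG1 (0.148), and ARGLU1 stood at 116.5, 112.4, 61.5 and 109.8 CPM.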

How the data were processed

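The authors deposited, for each of the 4 libraries, a matrix of UMI counts per gene and cell made with Cell Ranger 3.0.2 (per the submitters' processing notes) from 10x Genomics 3' v3 libraries on a prebuilt GRCh38 reference. The counts are not normalized. Cells were kept by the limits on genes, UMIs and mitochondrial share that the study's methods give for each library, which differ between libraries (LNCaP from 16000 to 50000 UMIs, the other 3 from 5000 to 25000), and no doublet caller was run. This left 1782, 4315, 4569 and 4061 of 2358, 4812, 5156 and 4907 barcodes, with LNCaP first, then LNCaP-ENZ48, then the resistant lines A and B.

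Counts were summed over kept cells and divided by the library total (CPM). Levels carry exact Poisson 95% intervals, and ratios carry exact conditional binomial (Clopper-Pearson) 95% intervals. Each group was 1 library, so no test was made and no p-value is given. The study tested over cells, which are not replicates. A difference was counted from 1.5-fold among genes that averaged 10 CPM or more over the libraries. The interval script was tested on simulated data.

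The host genes and all gene lists were chosen with earlier results of these data known. All members are named. From each list, the genes named come from the 2 highest and 2 lowest ratios of a comparison past 10 CPM, and the nearest profiles are the first 3 genes for the 3 members with the widest range. Of the other noncoding hosts listed, DANCR and TUG1 were not analysed here, and the other 12 are all given, as are the markers and overlapping genes. Of 33538 gene identifiers, 33113 matched GENCODE 44, which gave positions, overlaps and snoRNA loci. The search for snoRNA boxes left out chromosome 8. Phases were called with scanpy 1.11.5 on cells thinned to 5000 UMIs (43 S and 54 G2/M genes). Alternatives were TMM (edgeR 4.0.16) and DESeq2 1.42.0 size factors on the summed counts, other totals, other cell filters, thinned cells, equal weight of cells, G1 cells alone, a 2-fold limit and minima of 1 and 50 CPM. Python 3.11.15, scipy 1.17.1 and R 4.3.3 were used.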

Additional observations from a re-analysis of the deposited data

How the results depend on the processing

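No paired analysis was possible because each group is 1 library, and no replicate could be left out. Under 8 other ways of scaling, filtering or weighting the cells, chosen with earlier results of these data known, none of the 20 log2 ratios of the 5 host genes to LNCaP or between the resistant lines crossed 1.5-fold in either direction. The largest shift of a ratio was 0.17, for SNHG12 in LNCaP-ENZ48 against LNCaP, with cells thinned to 5000 UMIs. Over these settings the log2 ratio of SNHG25 to LNCaP was 1.503 to 1.640 in LNCaP-ENZ48, 2.29 to 2.42 in RES-A and 1.81 to 1.99 in RES-B. That of SNHG8 was -1.46 to -1.32 in RES-B, and that of SNHG7 was -1.01 to -0.87 in RES-A. The ratios that changed sign were near 0, namely SNHG7 and SNHG8 in LNCaP-ENZ48 and SNHG12 in RES-A and RES-B. The median log2 ratio over the 5 genes in LNCaP-ENZ48 turned from -0.09 to 0.01 with either TMM or DESeq2 scaling, and a minimum of 50 CPM, which leaves SNHG8 and SNHG25, turned the medians in the 4 comparisons to 0.73, 1.12, 0.28 and -0.84. With 2-fold in place of 1.5-fold, the number of host genes lower in RES-A than in LNCaP went from 1 to 0, and the number of those above RES-A in RES-B from 1 to 0, since both counts rest on SNHG7. Counts past 1.5-fold in the other gene lists use library totals alone. Against LNCaP, NOP58 and PIH1D1 in RES-A and DKC1, MAGOHB and SNHG9 in RES-B fall short of the limit with TMM scaling. UPF3A in RES-A against LNCaP and SNHG9 in RES-B against RES-A pass it in the lower direction. TMM scaling moved the median log2 ratio of all genes from -0.07 to 0.02 in LNCaP-ENZ48 against LNCaP and from 0.11 to 0.01 in RES-B against LNCaP, and the medians of the ribosomal protein and other TOP genes in LNCaP-ENZ48 turned from -0.02 and -0.01 to 0.08 each. The cell filters differ between libraries, and the libraries were made once, so depth sets the counting error but not the error between cultures, which was not measured.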
